A study of Mus musculus with 18 samples.

Results

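The genes described here are 37 genes of glucose uptake, glycolysis, lactate handling, glycerol phosphate formation and glycogen turnover, chosen by gene symbol from the 54347 rows of the count table. All 37 were in the table, and all passed the filter on low counts that left 18728 genes for testing. Poly-A RNA was sequenced from 3 fat depots, the interscapular brown (iBAT), the inguinal white (iWAT) and the epididymal white (eWAT) adipose tissue, of 6 C57BL/6N mice, 12 weeks of age and fed chow. Of these, 3 mice were wild type (wt) and 3 were homozygous knock out (ko) litter mates carrying ΔGm15551, a constitutive CRISPR/Cas9 deletion that removes the first exon of the long noncoding RNA gene Gm15551. The 6 groups were therefore iBAT wt, iBAT ko, iWAT wt, iWAT ko, eWAT wt and eWAT ko with 3 libraries each, and every mouse gave 1 library per tissue. All groups shared strain, age and diet, no other allele or agent is given for any of them, and the knock out was a single deletion line and not restricted to adipose tissue.

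Glucose enters adipocytes through the insulin-regulated transporter GLUT4 and the constitutive transporter GLUT1, is phosphorylated by hexokinases and is broken down to pyruvate by glycolysis. Pyruvate is then oxidised or reduced to lactate, the intermediate dihydroxyacetone phosphate supplies the glycerol backbone of triglycerides, and surplus glucose can be stored as glycogen. Brown adipose tissue burns fuel for heat and is known for high glucose uptake, while white adipose tissue mainly stores and releases fat. Most steps are run by small gene families whose isoforms differ between tissues, among them the muscle isoforms Pfkm, Pgam2, Eno3, Pygm and Fbp2.

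Libraries held 14997901 to 34389586 estimated counts, of which 22.9% to 27.0% came from the mitochondrial genome in iBAT and 3.77% to 9.64% in the white tissues. Gm15551 had 40 to 316 counts in the 9 wild type libraries and 0 to 4 in the 9 knock out libraries. Levels are given as CPM, the count relative to a scaled library total of 1000000, and a count of 0 allows up to 3 counts, or 0.0728 to 0.235 CPM depending on the library. Adipocyte markers were high in all libraries, with a summed level of 10046 to 29837 CPM over 6 genes, and 6 brown adipocyte markers summed to 6917 to 12318 CPM in iBAT against 7.18 to 315 CPM in the white tissues. However, 4 white libraries carried markers of other tissues. In iWAT ko replicate 1, 13 skeletal muscle markers summed to 5112 CPM, against 20.6 to 63.8 CPM in the other iWAT libraries. In iWAT wt replicate 3 and iWAT ko replicate 2, 12 lymph node markers summed to 1212 and 515 CPM, and in eWAT ko replicate 3, 8 epididymis markers summed to 4823 CPM. These epididymis markers were also at 16.8 CPM in eWAT wt replicate 1, against 0.172 to 2.82 CPM in the other 4 eWAT libraries. A further 6 testis markers summed to 94.6 CPM in eWAT ko replicate 3, to 6.405 CPM in eWAT wt replicate 2 and to 4.66 CPM in eWAT wt replicate 1, and to at most 0.315 CPM in all other libraries. Where a call changed without these 4 libraries, or a called value moved by more than 1.5 times, the value without them is given beside the result.

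Together the 37 genes took 4.04% to 4.96% of the counts outside the mitochondrial genome in iBAT (median 4.66%), 0.734% to 1.91% in iWAT (median 1.68%) and 0.624% to 1.22% in eWAT (median 0.970%). The iBAT libraries did not overlap with those of either white tissue. The lowest share within iWAT came from wt replicate 3, where 28 of the 37 genes had their lowest iWAT level (75.7%, against 29.5% of all genes tested). Likewise, 23 genes were lowest in eWAT ko replicate 3 (62.2%, against 34.7% of all genes). These libraries also had the lowest adipocyte marker sums of their tissue, and the part of this difference in the levels of the 37 genes was not tested. In iBAT, 14 genes were lowest in ko replicate 3 (37.8%, against 15.3% of all genes) and 12 in wt replicate 3 (32.4%, against 18.7%). Their brown adipocyte marker sums, 6917 and 7400 CPM, were below the 9135 to 12318 CPM of the other iBAT libraries, and the part of these was not tested either. Since whole tissue was sequenced, fewer cells of a type and less RNA per cell cannot be told apart.

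To rank the genes against each other, CPM were divided by the length in kb of the principal transcript. In iBAT the highest levels were those of Aldoa (4555 ± 621 CPM per kb, SD, n = 6), the main aldolase outside liver and brain, and Gpd1 (4144 ± 915), the cytosolic glycerol-3-phosphate dehydrogenase. Eno1 (2663 ± 367), Gapdh (1897 ± 320), Pck1 (1657 ± 223), Pkm (1415 ± 254) and Ldha (1304 ± 108) followed. Aldoa and Gpd1 did not differ beyond their spread, nor did neighbours from Gapdh down to Ldha. In iWAT, Pck1 (1042 ± 646 CPM per kb), Aldoa (934 ± 374) and Gpd1 (596 ± 263) led, with neighbours closer than the larger of their SDs. In eWAT, Aldoa (739 ± 208) was ahead of Pck1 (426 ± 243) by more than either SD. At the other end of the iBAT order, Hk3, Slc16a3, Aldoc and Eno2 had means below 1 CPM per kb.

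Brown and white adipose tissue were compared first. Of the 37 genes, 28 differed between iBAT and iWAT, 22 higher and 6 lower in iBAT, where 54.3% of all genes tested passed the same threshold (adjusted p under 0.05), 24% higher and 30.3% lower. Likewise, 28 genes differed between iBAT and eWAT, 23 higher and 5 lower, with a background of 54.6% of all genes, 24.4% higher and 30.2% lower. The median log2 fold change of the 37 genes was 1.504 against iWAT and 1.99 against eWAT, compared with -0.145 and -0.175 over all genes tested. A difference of at least 2-fold and past the threshold was found for 21 higher and 4 lower genes against iWAT (10.2% and 20.5% of all genes) and for 22 higher and 3 lower genes against eWAT (11.9% and 19.8%). The iBAT libraries lay above all 6 iWAT libraries for 21 genes and below them for 4 (17.7% and 16.9% of all genes), and above all eWAT libraries for 23 genes and below them for 1 (18.8% and 18.6%). At an unadjusted p under 0.05 the count was 28 in each comparison (59.4% and 59.6% of all genes). Both comparisons share the iBAT libraries and are not independent of each other. With wild type libraries only (3 against 3), 23 and 24 genes were called, while the count over all genes went from 10164 to 6595 and from 10220 to 6574. Slc2a1, Tpi1, Eno3, Pygb and Gys2 lost their call against iWAT (adjusted p of 0.0515 to 0.369), and Slc2a1, Tpi1, Pfkfb4 and Fbp2 lost theirs against eWAT (adjusted p of 0.0613 to 0.121).

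The scaling of the libraries bears on the size of these differences. Scaling by the summed counts outside the mitochondrial genome, without the TMM factors, moved the median of all genes by -0.486 and -0.504 on the log2 scale, and the split of all genes called went from 4490 higher and 5674 lower to 2238 and 10056 against iWAT, and from 4565 and 5655 to 2454 and 10214 against eWAT. The 28 genes called in each comparison were also called under this scaling, within 31 genes (22 higher, 9 lower) against iWAT and 30 genes (23 higher, 7 lower) against eWAT. The genes gained were all lower in iBAT, Pfkfb2 (log2 -0.70 and -0.75, adjusted p = 0.0118 and 0.00793) and Slc16a3 (-1.49 and -1.41, adjusted p = 0.0207 and 0.0269) in both comparisons and Pygm (-2.31, adjusted p = 0.0499) against iWAT. In iWAT ko replicate 1, which carried skeletal muscle markers, Pygm was at 256 CPM and Slc16a3 at 7.77 CPM. The other iWAT libraries had at most 7.60 and 3.72 CPM of these genes, and this scaling was not run without that library.

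**Figure D1:**
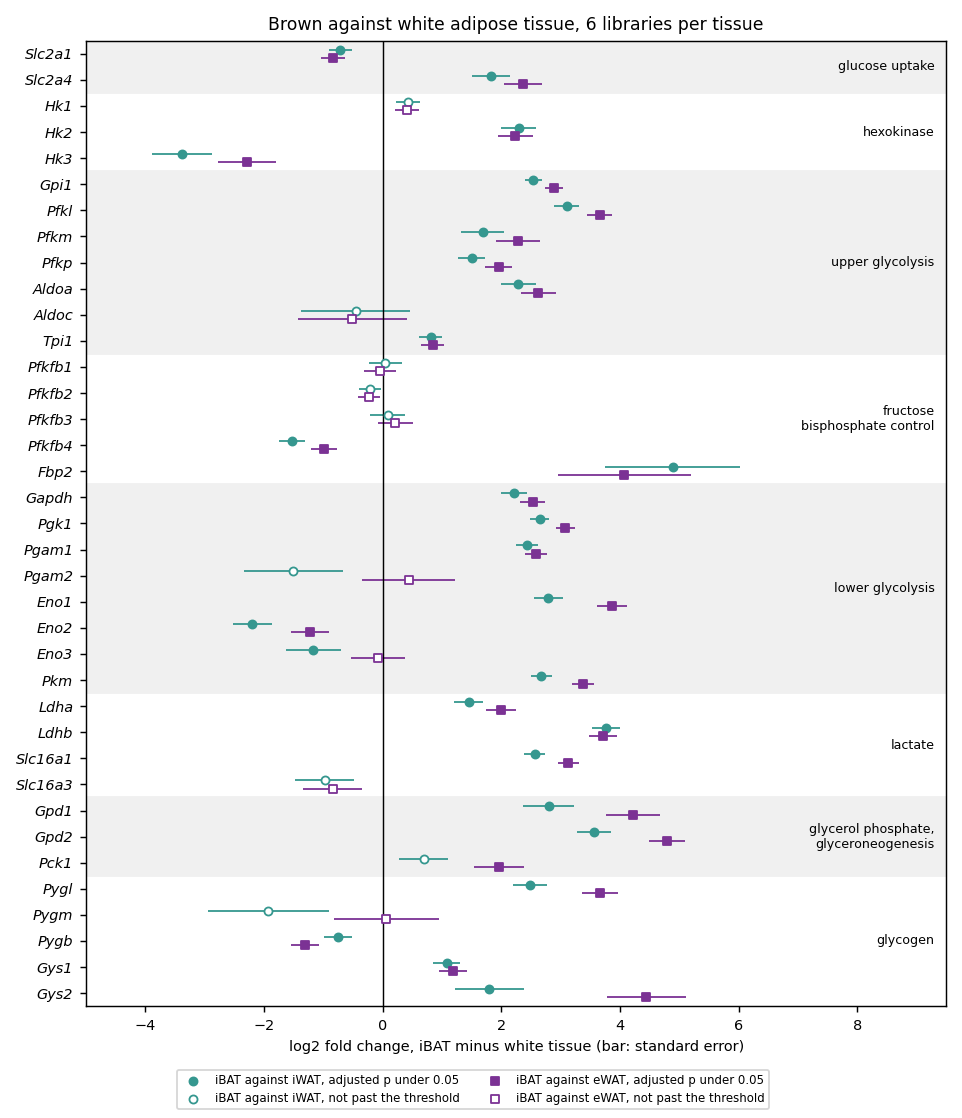
Log2 fold change (horizontal axis, bars show the standard error) of each of the 37 genes in iBAT against iWAT (circles) and against eWAT (squares), 6 libraries per tissue, ordered by step, filled where the adjusted p was under 0.05. Most filled symbols lie to the right of 0, from Tpi1 at 0.81 to Fbp2 at 4.89, while Slc2a1, Hk3, Pfkfb4, Eno2 and Pygb lie to the left in both comparisons.

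Both glucose transporters changed, in opposite directions. Slc2a4, which encodes GLUT4, had 622 to 967 CPM in iBAT (median 923), 71.4 to 361 CPM in iWAT (median 259) and 71.9 to 217 CPM in eWAT (median 174). No iBAT library overlapped with a white one, and expression was 3.55-fold higher than in iWAT (log2 fold change 1.83, SE 0.32, adjusted p = 0.000144) and 5.16-fold higher than in eWAT (2.37, SE 0.33, adjusted p = 1.1e-05). Slc2a1, which encodes GLUT1, ranged from 9.35 to 15.9 CPM in iBAT (median 13.1), from 16.8 to 27.9 CPM in iWAT (median 20.7) and from 14.4 to 36.9 CPM in eWAT (median 22.3). It was lower in iBAT by log2 fold changes of -0.71 (SE 0.20, adjusted p = 0.00700) and -0.83 (SE 0.20, adjusted p = 0.00232), with overlap between iBAT and eWAT only. With wild type libraries only, the differences were -0.71 (adjusted p = 0.0515) and -0.65 (adjusted p = 0.0691).

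The hexokinases, which trap glucose as glucose-6-phosphate, followed 3 different patterns. Hk2, the insulin-responsive form of muscle and fat, had 391 to 848 CPM in iBAT (median 591), 40.2 to 206 CPM in iWAT (median 125) and 115 to 165 CPM in eWAT (median 128). All iBAT libraries were above all white libraries, 4.90-fold against iWAT (log2 2.29, SE 0.30, adjusted p = 7.32e-06) and 4.71-fold against eWAT (log2 2.24, SE 0.30, adjusted p = 7.61e-06). Hk1, the widely expressed form, had medians of 48.3, 37.02 and 37.4 CPM in iBAT, iWAT and eWAT, and its log2 differences of 0.43 (95% interval -0.01 to 0.86) and 0.41 (-0.03 to 0.84) did not pass the threshold. The first passed without the 4 libraries that carried other tissue (0.67, adjusted p = 0.0405), and both passed without iBAT ko replicate 3 (0.56, adjusted p = 0.0156 and 0.54, adjusted p = 0.0184). Hk3, a form of blood cells, was low throughout, with 0.248 to 1.62 CPM in iBAT, 2.99 to 17.6 CPM in iWAT and 1.44 to 4.61 CPM in eWAT. Its log2 fold changes were -3.38 (SE 0.50, adjusted p = 2.85e-05) and -2.28 (SE 0.48, adjusted p = 0.000727). The highest Hk3 levels, 17.6 and 11.4 CPM, were those of the lymph node libraries iWAT ko replicate 2 and iWAT wt replicate 3, and without the 4 libraries that carried other tissue the log2 difference from iWAT was -2.61. The summed level of 8 myeloid markers was 52.2 to 137 CPM in iBAT, 241 to 1594 CPM in iWAT and 139 to 540 CPM in eWAT, and its part in the Hk3 difference was not tested.

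In the upper part of glycolysis, 6 of 7 genes were higher in iBAT than in both white tissues, beside 24% of all genes against iWAT and 24.4% against eWAT. Gpi1, the glucose-6-phosphate isomerase, had 1480 to 1962 CPM in iBAT, 215 to 385 CPM in iWAT and 189 to 265 CPM in eWAT, and was among the most precise differences, at log2 2.54 (SE 0.14, adjusted p = 1.27e-09) and 2.89 (SE 0.15, adjusted p = 2.32e-10). Pfkl, the liver-type subunit of phosphofructokinase, which catalyses the committed step of glycolysis, had 1100 to 1906 CPM in iBAT (median 1384), 84.1 to 230 CPM in iWAT (median 165) and 103 to 123 CPM in eWAT (median 113). This was 8.58-fold and 12.6-fold higher (log2 3.10 and 3.66, SE 0.21 each, adjusted p = 5.53e-09 and 8.29e-10). The platelet-type subunit Pfkp had 157 to 361 CPM in iBAT against at most 103 CPM in any white library, with log2 differences of 1.504 (SE 0.23) and 1.96 (SE 0.23). The muscle-type subunit Pfkm had 117 to 150 CPM in iBAT and 19.2 to 30.9 CPM in eWAT (log2 2.28, SE 0.37), but in iWAT the level of 133 CPM in ko replicate 1 fell within the iBAT range.

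Aldoa, which splits fructose-1,6-bisphosphate, had 5373 to 7863 CPM in iBAT (median 7003), 552 to 2094 CPM in iWAT (median 1465) and 623 to 1529 CPM in eWAT (median 1200). It was 4.88-fold and 6.17-fold higher in iBAT (log2 2.29, SE 0.29, adjusted p = 6.16e-06 and log2 2.63, SE 0.30, adjusted p = 1.2e-06). Tpi1, the triose phosphate isomerase, had the smallest difference among the genes called higher, with 473 to 668 CPM in iBAT against 178 to 431 CPM in iWAT and 223 to 384 CPM in eWAT (log2 0.81, SE 0.19 and 0.84, SE 0.20), although the libraries still did not overlap. Aldoc, the brain form of aldolase, stayed at or below 6.51 CPM in all libraries and did not pass the threshold.

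The genes that set the level of fructose-2,6-bisphosphate, the activator of phosphofructokinase, did not move with the enzymes. Pfkfb3, whose product mainly synthesises this activator, had 599 to 946 CPM in iBAT, 233 to 1024 CPM in iWAT and 303 to 869 CPM in eWAT. Its ranges overlapped, and its log2 differences were 0.08 (95% interval -0.53 to 0.70) and 0.21 (-0.40 to 0.83), which leaves out a 2-fold difference in either direction. Pfkfb1 (log2 0.05 and -0.04) and Pfkfb2 (-0.21 and -0.23) did not pass the threshold either, although Pfkfb2 was called lower in both comparisons when scaled by counts outside the mitochondrial genome. Pfkfb4 was lower in iBAT, with 3.94 to 7.74 CPM against 9.80 to 21.1 CPM in iWAT and 7.26 to 15.2 CPM in eWAT (log2 -1.53, SE 0.22, adjusted p = 1.83e-05 and -0.99, SE 0.21, adjusted p = 0.000909). Fbp2, the muscle form of fructose-1,6-bisphosphatase, which catalyses the reverse step, had 10.3 to 34.4 CPM in iBAT and 0.132 to 2.09 CPM in iWAT. In eWAT it was at or below 0.3004 CPM in 5 libraries and at 8.18 CPM in wt replicate 1. The log2 differences were 4.89 (SE 1.13, adjusted p = 0.00164) and 4.07 (SE 1.13, adjusted p = 0.00575), and the second was 7.02 without eWAT wt replicate 1. Without the 4 libraries that carried other tissue, the first was 5.67.

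In the lower part of glycolysis, with 8 genes, the same 5 widely expressed genes were higher in iBAT than in both white tissues. Of all genes, 24% were higher against iWAT and 24.4% against eWAT. Gapdh had 2112 to 3171 CPM in iBAT, 363 to 916 CPM in iWAT and 325 to 558 CPM in eWAT (log2 2.22 and 2.53, SE 0.22 each, adjusted p = 2.83e-07 and 5.24e-08), so this frequent reference gene was not at a constant level across the tissues. Pgk1, which makes the first ATP of the pathway, had 870 to 1184 CPM in iBAT against 95.9 to 226 CPM in the white libraries (log2 2.65 and 3.08, SE 0.16 each). Pgam1, the widely expressed phosphoglycerate mutase, had 924 to 1393 CPM against 123 to 297 CPM (log2 2.43 and 2.58, SE 0.19 each).

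Eno1, the widely expressed enolase, had 4611 to 6519 CPM in iBAT (median 5261), 439 to 1176 CPM in iWAT (median 736) and 213 to 460 CPM in eWAT (median 401). It was 6.93-fold higher in iBAT than in iWAT (log2 2.79, SE 0.24, adjusted p = 7.11e-08) and 14.52-fold higher than in eWAT (log2 3.86, SE 0.25, adjusted p = 2.26e-09). Pkm, which encodes the pyruvate kinases of most tissues other than liver, had 2703 to 4268 CPM in iBAT, 342 to 734 CPM in iWAT and 300 to 365 CPM in eWAT (log2 2.67, SE 0.18, adjusted p = 5.62e-09 and 3.38, SE 0.19, adjusted p = 5.34e-10). The table gives counts per gene, so the M1 and M2 forms of Pkm were not separated.

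The other enolases differed from this pattern. Eno2, the neuronal enolase, was lower in iBAT, with 0.840 to 3.08 CPM against 3.67 to 12.99 CPM in iWAT and 2.87 to 5.77 CPM in eWAT (log2 -2.20, SE 0.33, adjusted p = 3.53e-05 and -1.23, SE 0.32, adjusted p = 0.00406). Eno3, the muscle enolase, passed the threshold against iWAT (log2 -1.17, SE 0.47, adjusted p = 0.0449) but not against eWAT (-0.08, adjusted p = 0.903). The iWAT call held in 10 of 25 alternatives only. Without iWAT ko replicate 1, which had 109 CPM, the difference was -0.29 (adjusted p = 0.319), with a block for each mouse -0.81 (adjusted p = 0.150), and without the 4 libraries that carried other tissue 0.0178 (adjusted p = 0.940). Pgam2, the muscle mutase, did not pass the threshold in either comparison (log2 -1.50, SE 0.83 and 0.44, SE 0.78), but was higher in iBAT than in eWAT without the 4 libraries (log2 0.80, adjusted p = 0.0259). Without eWAT ko replicate 3 alone, where Pgam2 was at 4.11 CPM against at most 1.09 CPM in the other eWAT libraries, the difference was 0.81 (adjusted p = 0.425).

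Lactate is made and used by lactate dehydrogenase, whose A subunit favours the reduction of pyruvate and whose B subunit favours the oxidation of lactate, and it crosses the membrane through monocarboxylate transporters. Ldha had 2024 to 2534 CPM in iBAT (median 2268), 493 to 1170 CPM in iWAT (median 880) and 248 to 747 CPM in eWAT (median 641), giving log2 differences of 1.45 (SE 0.24, adjusted p = 0.000105) and 1.99 (SE 0.25, adjusted p = 3.76e-06). Ldhb had 707 to 818 CPM in iBAT (median 791), 25.2 to 81.1 CPM in iWAT (median 64.1) and 52.9 to 63.6 CPM in eWAT (median 59.9). It was 13.6-fold and 13.1-fold higher in iBAT (log2 3.76 and 3.71, SE 0.24 each, adjusted p = 3.18e-09 and 1.74e-09), and the iBAT libraries were far from all white libraries for both subunits.

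Slc16a1, which encodes the monocarboxylate transporter MCT1, had 277 to 439 CPM in iBAT, 36.6 to 73.4 CPM in iWAT and 33.0 to 47.5 CPM in eWAT. The log2 differences were 2.56 (SE 0.17, adjusted p = 6.49e-09) and 3.13 (SE 0.18, adjusted p = 7.38e-10). Slc16a3, which encodes the transporter MCT4 of strongly glycolytic cells, was at 0.905 to 7.77 CPM in all 18 libraries, with log2 differences of -0.98 (95% interval -2.04 to 0.08) and -0.84 (-1.91 to 0.22) that did not pass the threshold, except under the scaling by counts outside the mitochondrial genome. It had 7.77, 3.72 and 3.46 CPM in iWAT ko replicate 1, ko replicate 2 and wt replicate 3, which carried other tissue. The other iWAT libraries had 0.942 to 1.32 CPM, within or near the iBAT range of 0.905 to 2.74 CPM. In eWAT, ko replicate 3 had 6.83 CPM, against 1.12 to 3.47 CPM in the others.

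In glycerol phosphate metabolism, both dehydrogenases had higher levels in iBAT than in the white tissues. Gpd1, which reduces dihydroxyacetone phosphate to glycerol-3-phosphate, had 8101 to 14793 CPM in iBAT (median 12544), 400 to 2611 CPM in iWAT (median 1823) and 183 to 931 CPM in eWAT (median 705). It was 6.95-fold higher than in iWAT (log2 2.80, SE 0.43, adjusted p = 4.34e-05) and 18.6-fold higher than in eWAT (log2 4.22, SE 0.46, adjusted p = 7.77e-07). Gpd2, the mitochondrial dehydrogenase that completes the glycerol phosphate shuttle, had 963 to 1629 CPM in iBAT (median 1174), 43.8 to 162 CPM in iWAT (median 97.4) and 26.8 to 61.6 CPM in eWAT (median 41.4). This was 11.8-fold and 27.7-fold higher (log2 3.56, SE 0.29, adjusted p = 4.39e-08 and log2 4.79, SE 0.31, adjusted p = 2.09e-09). For both genes the iBAT libraries were above all white libraries.

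Pck1, the cytosolic phosphoenolpyruvate carboxykinase, which feeds glyceroneogenesis in fat, differed only in part. It had 3794 to 5126 CPM in iBAT (median 4263), 595 to 5051 CPM in iWAT (median 2859) and 521 to 2399 CPM in eWAT (median 966). The iWAT libraries spread over nearly the whole range, and the difference from iBAT did not pass the threshold (log2 0.69, 95% interval -0.17 to 1.55, adjusted p = 0.162), whereas that between iBAT and eWAT did (log2 1.96, SE 0.42, adjusted p = 0.000804).

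In glycogen metabolism the liver isoforms of both enzymes were higher in iBAT. Pygl, the liver form of glycogen phosphorylase, had 1407 to 1728 CPM in iBAT (median 1509), 106 to 432 CPM in iWAT (median 266) and 62.4 to 163 CPM in eWAT (median 133). It was 5.57-fold and 12.7-fold higher (log2 2.48, SE 0.29, adjusted p = 1.97e-06 and log2 3.67, SE 0.30, adjusted p = 2.86e-08). Pygb, the brain form, had 113 to 145 CPM in iBAT, 101 to 299 CPM in iWAT and 179 to 455 CPM in eWAT, and was lower in iBAT (log2 -0.75, SE 0.23, adjusted p = 0.0121 and -1.31, SE 0.24, adjusted p = 0.000176), without overlap only against eWAT. Pygm, the muscle form, did not pass the threshold (log2 -1.92, SE 1.01 and 0.06, SE 0.88), except against iWAT under the scaling by counts outside the mitochondrial genome.

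Gys1, the glycogen synthase of muscle and most other tissues, had 304 to 387 CPM in iBAT, 73.8 to 217 CPM in iWAT and 82.6 to 186 CPM in eWAT (log2 1.08, SE 0.23, adjusted p = 0.000772 and 1.18, SE 0.23, adjusted p = 0.000339). Gys2, the liver synthase, had 61.1 to 130 CPM in iBAT (median 92.2), 3.26 to 48.6 CPM in iWAT (median 26.9) and 0.347 to 9.53 CPM in eWAT (median 3.05). This was 3.47-fold above iWAT (log2 1.80, SE 0.59, adjusted p = 0.0159) and 21.7-fold above eWAT (log2 4.44, SE 0.66, adjusted p = 2.7e-05). No iBAT library overlapped with a white library for either synthase.

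**Figure D2:**
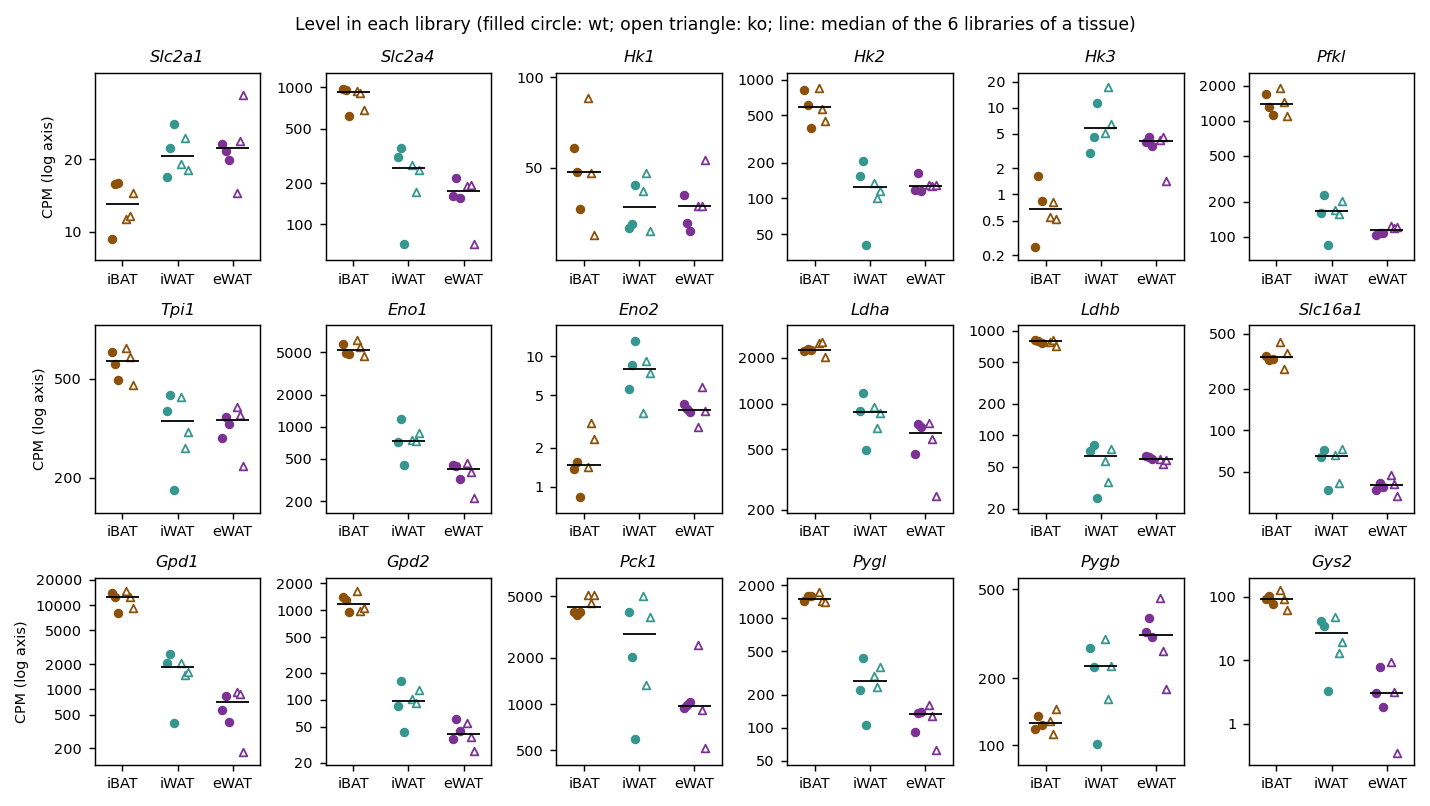
CPM (vertical log axis) of 18 of the genes in each of the 18 libraries by tissue, with filled circles for wt, open triangles for ko and a line at the median of the 6 libraries of a tissue. The iBAT points of Gpd1 (8101 to 14793 CPM), Ldhb (707 to 818 CPM) and Gys2 (61.1 to 130 CPM) lie above all white points, those of Hk3 and Eno2 lie mostly below, and the wt and ko points of a tissue overlap except for Pck1 in iBAT and for Pfkl and Ldhb in eWAT.

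The white tissues differed less from each other. All 7 genes that passed the threshold between iWAT and eWAT were higher in iWAT (10.2% of all genes passed, 5.7% higher and 4.5% lower), and the median log2 fold change was 0.452 against 0.0105 over all genes. The brown adipocyte markers moved the same way, with 4 of 6 called higher in iWAT and a summed level of 26.9 to 315 CPM against 7.18 to 21.98 CPM in eWAT, and their part in this difference was not tested. The 7 genes were Gys2 (log2 2.64, SE 0.62, adjusted p = 0.0134), Gpd1 (1.42, SE 0.41, adjusted p = 0.0369), Gpd2 (1.23, SE 0.27, adjusted p = 0.00886), Pygl (1.19, SE 0.27, adjusted p = 0.0123), Eno1 (1.07, SE 0.23, adjusted p = 0.00717), Pkm (0.71, SE 0.17, adjusted p = 0.0153) and Slc16a1 (0.57, SE 0.17, adjusted p = 0.0391). The first 5 of these differed by at least 2-fold and none of the 37 genes was lower by that much (4.22% and 2.47% of all genes), and 18 genes had an unadjusted p under 0.05 (25.5%). The libraries of the tissues overlapped for all 37 genes (2.3% and 2.33% of all genes did not overlap, higher and lower in iWAT). This count depended on single libraries and on the test. It was 11 without iWAT wt replicate 3, 13 without the 4 libraries that carried other tissue, 12 with DESeq2 and 0 with wild type libraries only, while the count over all genes went from 1911 to 1624, 2066, 2705 and 247. The calls of Gpd1 and Slc16a1 held in 16 and 11 of 26 alternatives. The genes gained without the 4 libraries were Pck1 (log2 1.43), Pfkl (0.83), Slc2a4 (0.74), Ldha (0.59), Pgk1 (0.54) and Ldhb (0.33), with adjusted p of 0.00266 to 0.0330.

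The isoform make-up of the families was examined as the share of each gene in the summed CPM per kb of its family, and by the ratio of counts of 12 isoform pairs, which does not depend on the scaling of the library. Shares depend on the gene length used. With the merged length of all exons instead of the principal transcript, 35 mean shares moved by their SD or more. The ratio of 10 pairs differed between iBAT and iWAT, that of 9 between iBAT and eWAT and that of 3 between iWAT and eWAT (two-sided exact permutation tests over 6 against 6 libraries, adjusted over 36 tests). The smallest p such a test can give is 0.00216, or 0.00433 after adjustment. This test does not use that the tissues came from the same 6 mice. In the exact test over pairs of libraries of the same mouse, 10, 9 and 4 ratios differed, with Pfkfb1 to Pfkfb3 gained between iWAT and eWAT (difference -0.17, adjusted p = 0.0489, against 0.709 in the unpaired test). The smallest p of the paired test is 0.0313, and all of these ratios were at it, with the same adjusted p of 0.0489, so this test does not grade them. Without the 4 libraries that carried other tissue, 6 ratios differed between iWAT and eWAT. The gained ones were Slc2a4 to Slc2a1 (log2 difference 0.84), Pfkm to Pfkl (-0.70), Eno1 to Eno3 (1.10) and Slc16a1 to Slc16a3 (1.33), with adjusted p of 0.0321 to 0.0495 by the exact permutation test, and Ldha to Ldhb was lost.

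In iBAT, Slc2a4 made up 98.8% ± 0.457 (SD, n = 6) of both glucose transporters, compared with 91.3% ± 7.43 in iWAT and 88.5% ± 8.45 in eWAT. The ratio of Slc2a4 to Slc2a1 was higher by 2.69 and 3.22 on the log2 scale (exact permutation test, adjusted p = 0.00433 for both). Hk2 made up 62.1% ± 17.4 of the hexokinases in iWAT, 67.8% ± 4.39 in eWAT and 89.3% ± 1.49 in iBAT, where Hk3 had only 0.212% ± 0.136. The lowest Hk2 share, 32.8%, was that of iWAT wt replicate 3. The log2 ratio of Hk2 to Hk1 was 2.02 and 1.84 higher in iBAT (adjusted p = 0.00433 by the same exact test). Without the 4 libraries, the difference from iWAT was 1.32 for Hk2 to Hk1 and 2.01 for Slc2a4 to Slc2a1, both still past the threshold.

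Pfkl made up 78.4% ± 1.57 of the phosphofructokinases in iBAT against 56.2% ± 9.36 in iWAT and 55.8% ± 7.02 in eWAT. The log2 ratio of Pfkp to Pfkl differed by -1.66 and -1.67 and that of Pfkm to Pfkl by -1.16 and -1.32 for iBAT against iWAT and eWAT (adjusted p = 0.00433, exact permutation test). Eno1 accounted for 99.7% ± 0.0812 of the enolases in iBAT, 94.1% ± 5.71 in iWAT and 94.2% ± 3.56 in eWAT, and Slc16a1 for 99.6% ± 0.134, 94.5% ± 4.29 and 93.4% ± 5.77 of the pair of lactate transporters. In the PFKFB family, Pfkfb3 was at 83.2% ± 5.32, 79.6% ± 6.60 and 78.7% ± 6.29, and the log2 ratio of Pfkfb1 to Pfkfb3 was apart by -0.18 and -0.35 (exact permutation test, adjusted p = 0.735 and 0.509). The log2 ratio of Aldoa to Aldoc was apart by 1.86 and 1.97 and did not pass (exact permutation test, adjusted p = 0.198 and 0.0610). This held in 14 and 12 of 15 alternatives, and the ratio passed in the others. Without the 4 libraries, the iBAT to iWAT difference went from -1.16 to -0.75 for Pfkm to Pfkl, from 3.56 to 2.55 for Eno1 to Eno3 and from 3.30 to 2.004 for Slc16a1 to Slc16a3, all still past the threshold.

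Ldhb made up 31.5% ± 1.35 of lactate dehydrogenase in iBAT, 8.20% ± 1.66 in iWAT and 13.5% ± 5.56 in eWAT. In iBAT every library lay between 29.8% and 33.3%, and the highest white library, eWAT ko replicate 3, reached 24.0%. For the log2 ratio of Ldha to Ldhb, iBAT had 1.56 ± 0.0907, iWAT 3.95 ± 0.319 and eWAT 3.20 ± 0.604, a difference of -2.39 and -1.64 for iBAT (exact permutation test, adjusted p = 0.00433 each). The difference of 0.75 between iWAT and eWAT (adjusted p = 0.0195 by the same exact test) fell to 0.26 (adjusted p = 0.30) without the 4 libraries that carried other tissue, and did not pass without iWAT ko replicate 1, iWAT ko replicate 2 or iWAT wt replicate 3 alone.

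Glycogen phosphorylase had the largest differences in share of the 12 families. Pygl made up 93.8% ± 0.671 in iBAT, 59.1% ± 12.4 in iWAT and 33.7% ± 4.26 in eWAT, while Pygb went from 5.67% ± 0.647 to 34.2% ± 7.44 and 64.1% ± 4.19. The log2 ratio of Pygl to Pygb was 3.59 ± 0.166, 0.315 ± 0.475 and -1.40 ± 0.278, with no overlap between any of the tissues (differences of 3.27, 4.99 and 1.72, exact permutation test, adjusted p = 0.00433 each). With the merged length of all exons instead of the principal transcript, the Pygl share was 88.4%, 42.8% and 20.4%, in the same order. Gys2 made up 26.8% ± 3.54 of glycogen synthase in iBAT, 16.5% ± 8.10 in iWAT and 3.46% ± 2.73 in eWAT. The log2 ratio of Gys1 to Gys2 differed by -3.78 between iBAT and eWAT (adjusted p = 0.00433, exact permutation test) and by -2.74 between iWAT and eWAT (adjusted p = 0.00820, same test). The difference of -1.04 between iBAT and iWAT (adjusted p = 0.0319, same test) passed in 9 of 15 alternatives only. Gpd1 took 93.2% to 98.0% of the glycerol-3-phosphate dehydrogenases in all libraries. The log2 ratio of Gpd1 to Gpd2 differed by -0.68 between iBAT and iWAT (adjusted p = 0.0297, exact permutation test, kept in 12 of 15 alternatives). The difference of -0.44 from eWAT (adjusted p = 0.209, exact permutation test) became -0.62 and passed the threshold without the 4 libraries, and also without eWAT ko replicate 3 alone.

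**Figure D3:**
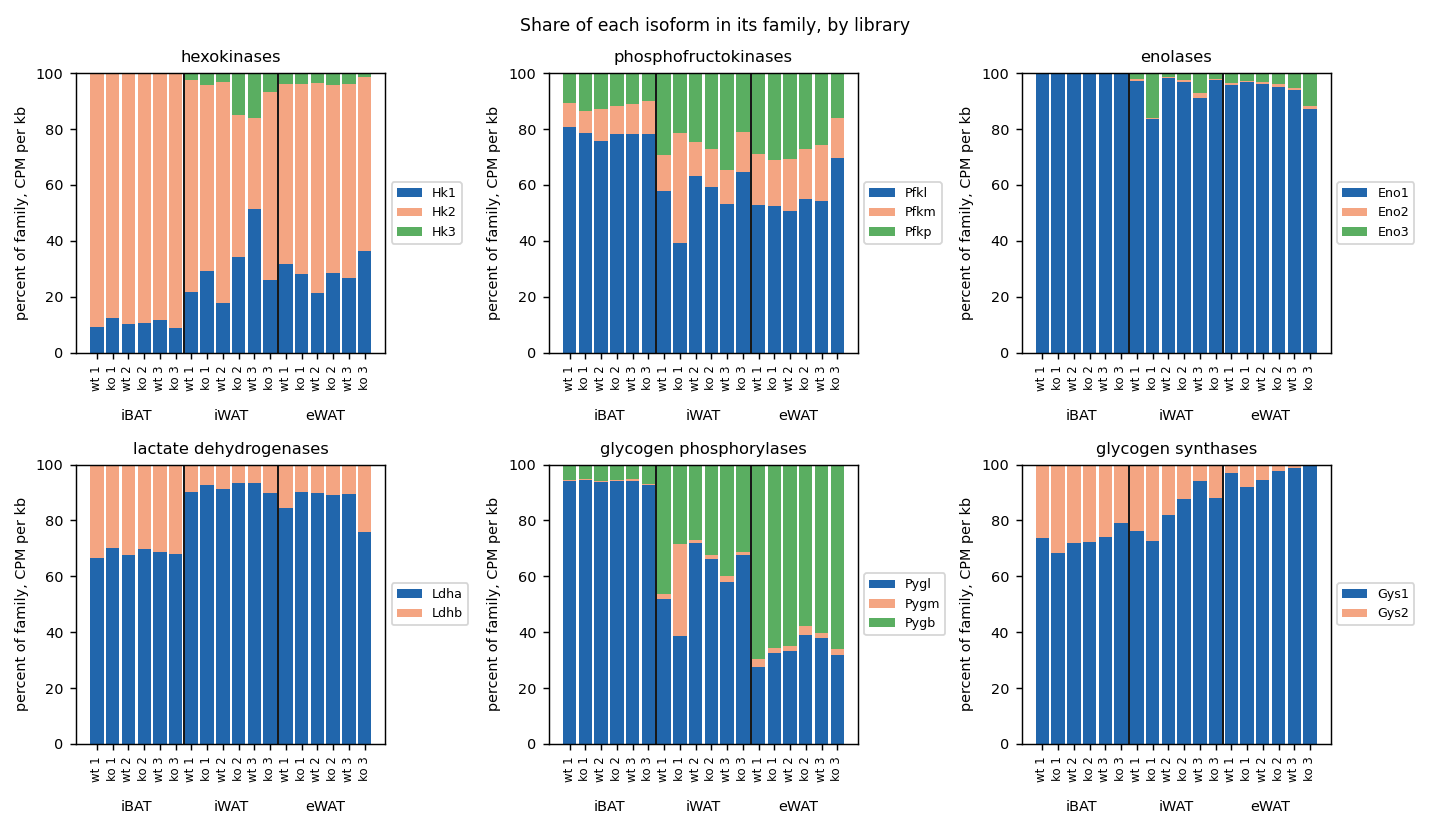
Share of each isoform in the summed CPM per kb of its family (vertical axis, percent) for 6 families, with a stacked bar for each of the 18 libraries in the order iBAT, iWAT, eWAT. Pygl fills 92.6% to 94.6% of the glycogen phosphorylase bars in iBAT and 27.6% to 39.1% in eWAT, and the iWAT ko 1 bar stands apart by its muscle isoforms Pfkm, Eno3 and Pygm.

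Sequences upstream of the start sites are shown for the genes of the 3 pairs whose ratio differed in all 3 comparisons, Ldha and Ldhb, Pygl and Pygb, and Gys1 and Gys2, since the isoforms of a pair are expressed in opposite or unequal ways in these tissues. They are the 250 bases before each annotated start (RefSeq, GRCm38.p6), written 5′ to 3′ on the strand of the gene, with matches to ACGTG, the core of the hypoxia response element, in capitals on either strand. A match to the E-box CACGTG also contains ACGTG. Ldha has 2 annotated starts, upstream at chr7:46845554-46845803 and downstream at chr7:46846832-46847081, both on the plus strand. Ldhb lies at chr6:142507958-142508207 (minus), Pygl at chr12:70227684-70227933 (minus), Pygb at chr2:150786546-150786795 (plus) and Gys1 at chr7:45434589-45434838 (plus), while Gys2 has no entry.
Ldha, upstream start: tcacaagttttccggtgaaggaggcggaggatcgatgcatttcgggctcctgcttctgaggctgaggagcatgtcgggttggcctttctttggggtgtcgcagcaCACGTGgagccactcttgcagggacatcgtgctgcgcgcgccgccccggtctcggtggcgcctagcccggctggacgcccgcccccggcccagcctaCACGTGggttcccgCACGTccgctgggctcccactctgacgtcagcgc
Ldha, downstream start: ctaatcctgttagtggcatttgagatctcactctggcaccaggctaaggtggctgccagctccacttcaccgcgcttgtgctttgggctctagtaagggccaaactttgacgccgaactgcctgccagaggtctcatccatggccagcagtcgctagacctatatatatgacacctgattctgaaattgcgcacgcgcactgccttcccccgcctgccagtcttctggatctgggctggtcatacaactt
Ldhb: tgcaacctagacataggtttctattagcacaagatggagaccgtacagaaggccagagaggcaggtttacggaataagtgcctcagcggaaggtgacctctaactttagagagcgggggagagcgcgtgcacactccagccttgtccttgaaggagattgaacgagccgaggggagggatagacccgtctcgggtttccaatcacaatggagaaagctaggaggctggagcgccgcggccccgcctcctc
Pygl: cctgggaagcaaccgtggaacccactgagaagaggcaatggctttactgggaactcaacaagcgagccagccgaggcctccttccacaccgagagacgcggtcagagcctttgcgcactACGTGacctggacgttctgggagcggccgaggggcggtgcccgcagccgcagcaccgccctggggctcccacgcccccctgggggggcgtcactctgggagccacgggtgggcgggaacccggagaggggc
Pygb: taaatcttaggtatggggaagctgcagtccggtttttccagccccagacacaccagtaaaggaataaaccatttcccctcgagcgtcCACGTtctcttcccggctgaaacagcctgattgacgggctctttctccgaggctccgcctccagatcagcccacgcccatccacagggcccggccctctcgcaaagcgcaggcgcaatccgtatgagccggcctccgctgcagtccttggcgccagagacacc
Gys1: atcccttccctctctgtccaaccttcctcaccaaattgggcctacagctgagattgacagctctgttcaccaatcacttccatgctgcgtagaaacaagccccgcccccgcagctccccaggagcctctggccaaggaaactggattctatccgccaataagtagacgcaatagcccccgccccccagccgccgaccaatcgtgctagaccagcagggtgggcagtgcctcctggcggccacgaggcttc

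The upstream Ldha window holds both motifs, those of Pygl and Pygb hold ACGTG, and the windows of Ldhb, Gys1 and the downstream Ldha start hold neither. Over all 52 start sites of the 34 genes with an entry, 42.3% had ACGTG in the 250 bases before the start, compared with 16.6% of the 32851 promoters of all genes. However, this share was 44.8% of 29 promoters of genes higher in iBAT than in both white tissues and 39.1% of 23 promoters of the other genes. CACGTG was found in 11.5% against 6.02% of all promoters, and AAGGTCA, the half-site of the estrogen-related receptors, in 3.85% against 4.08%. These matches are a description of the letters and not of binding.

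The muscle isoforms were checked against iWAT ko replicate 1, the library with skeletal muscle markers. Pygm was at 256 CPM in this library and at 3.99 to 7.60 CPM in the other 5 iWAT libraries. Pgam2 was at 32.2 CPM against 1.09 to 1.71 CPM, Eno3 at 109 CPM against 11.2 to 26.2 CPM, and Pfkm at 133 CPM against 15.2 to 34.4 CPM. Fbp2 was at 2.09 CPM against 0.132 to 0.682 CPM, and Slc16a3, which is not among these isoforms, at 7.77 CPM against 0.942 to 3.72 CPM. These 6 genes were more than 2 times as high there as in the next iWAT library (16.2% of the 37 genes, against 1.13% of all genes tested). In total 12 genes had their highest iWAT level in this library (32.4%, against 17.8%), with all 13 skeletal muscle markers.

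Without iWAT ko replicate 1, the log2 difference between iBAT and iWAT was 2.30 for Pfkm (1.68 with it), 6.08 for Fbp2 (4.89 with it), 0.03 for Pgam2 (-1.50 with it) and 0.61 for Pygm (-1.92 with it, adjusted p = 0.0742 without and 0.118 with the library). Pfkm and Fbp2 were thus higher in iBAT with and without it, and Pgam2 and Pygm passed the threshold in neither case. Among the iBAT libraries, the skeletal muscle markers summed to 67.1 to 92.0 CPM, above all white libraries except iWAT ko replicate 1, while Pygm (5.25 to 11.6 CPM), Pgam2 (0.928 to 1.94 CPM) and Eno3 (10.03 to 15.4 CPM) stayed within or near the range of those white libraries.

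**Figure D4:**
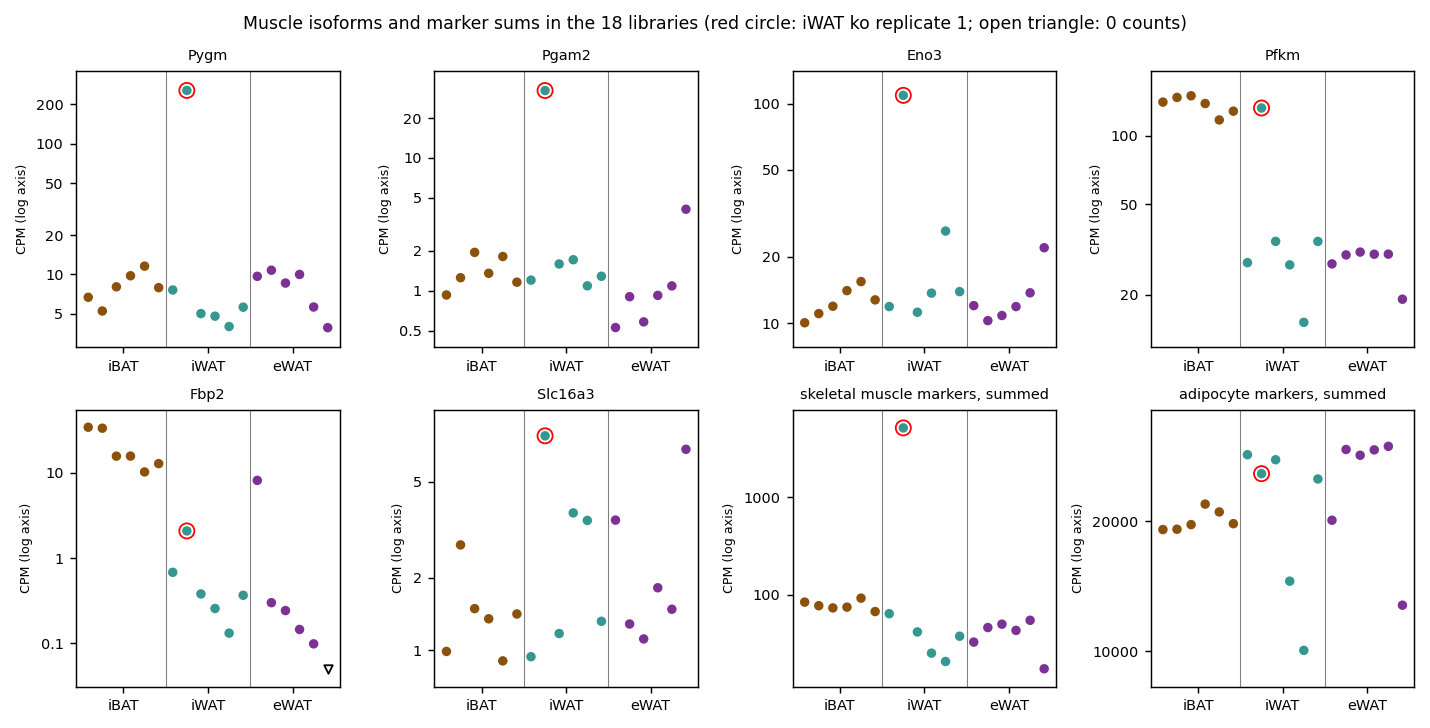
CPM (vertical log axis) of 6 genes and of the summed skeletal muscle and adipocyte markers in the 18 libraries, by tissue, with iWAT ko replicate 1 circled in red and a library with 0 counts as an open triangle. The circled library stands above all other iWAT libraries for the 6 genes, by far most for Pygm (256 CPM) and the muscle markers (5112 CPM), but not for the adipocyte markers.

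The effect of the Gm15551 deletion was tested across tissues and within each tissue. None of the 37 genes passed the threshold in any of these tests by edgeR or DESeq2, where edgeR called 0.00534% of all genes across tissues, 0% in iBAT, 0% in iWAT and 0.00534% in eWAT, and 0% for the interaction of genotype with tissue. Over all genes, DESeq2 called 4 across tissues, 13 in iBAT, 4 in iWAT, 13 in eWAT and 0 for the interaction. At an unadjusted p under 0.05, edgeR gave 2 of the 37 genes across tissues (2.19% of all genes), 0 in iBAT (1.27%), 4 in iWAT (2.22%), 1 in eWAT (4.35%) and 2 for the interaction (1.41%). The median log2 fold change of ko against wt was 0.0358 across tissues, 0.0397 in iBAT, 0.0740 in iWAT and -0.0398 in eWAT.

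The precision of these comparisons differed between genes. Intervals within a tissue use 1 estimate of the spread per gene over all 18 libraries, so they also reflect the spread in the other tissues. Across tissues, the 95% interval stayed within a 2-fold difference in both directions for 28 of the 37 genes, and for 24 in iBAT, 21 in iWAT and 20 in eWAT. The test across tissues counted the 3 libraries of each mouse as separate, although each genotype had 3 mice, so its intervals may be too narrow. Slc2a4 in iBAT was at 967, 956 and 622 CPM in wt and at 942, 904 and 685 CPM in ko (log2 -0.01, 95% interval -1.001 to 0.985). Hk2 in iBAT was at 819, 611 and 391 CPM in wt and at 848, 572 and 446 CPM in ko (0.04, interval -0.88 to 0.95). The genotypes were mixed for both genes, and in each genotype replicate 3 was lowest.

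The 4 genes with an unadjusted p under 0.05 in iWAT were Pygm (log2 4.004, SE 1.12), Pgam2 (3.18, SE 0.99), Eno3 (1.47, SE 0.63) and Pfkm (1.33, SE 0.46), all muscle isoforms. Without iWAT ko replicate 1 their log2 differences were -0.09, 0.21, -0.25 and 0.25. Across tissues, Pgam2 (1.47, SE 0.68) and Slc16a3 (0.87, SE 0.41) reached an unadjusted p under 0.05, and without that library were at 0.45 and 0.62. In eWAT it was Fbp2 (-4.18, SE 1.42), with 8.18, 0.243 and 0.0988 CPM in wt and 0.3004, 0.146 and 0 CPM in ko. Without eWAT wt replicate 1, which also had epididymis markers at 16.8 CPM, its log2 difference was -0.17, and the part of these markers in the Fbp2 level was not tested. Pck1 was at 3975, 3794 and 3934 CPM in iBAT wt and at 5074, 4551 and 5126 CPM in iBAT ko, without overlap, but its log2 difference of 0.33 (95% interval -0.97 to 1.64) did not pass the threshold. This interval is not the spread within iBAT alone. It rests on all 18 libraries, and Pck1 ranged from 595 to 5051 CPM in iWAT and from 521 to 2399 CPM in eWAT. Genotypes did not overlap for 2 of the 37 genes in iBAT, Pck1 and Pfkfb3 (4.94% of all genes), for 0 in iWAT (4.92%) and for 2 in eWAT, Pfkl and Ldhb (5.25%).

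**Figure D5:**
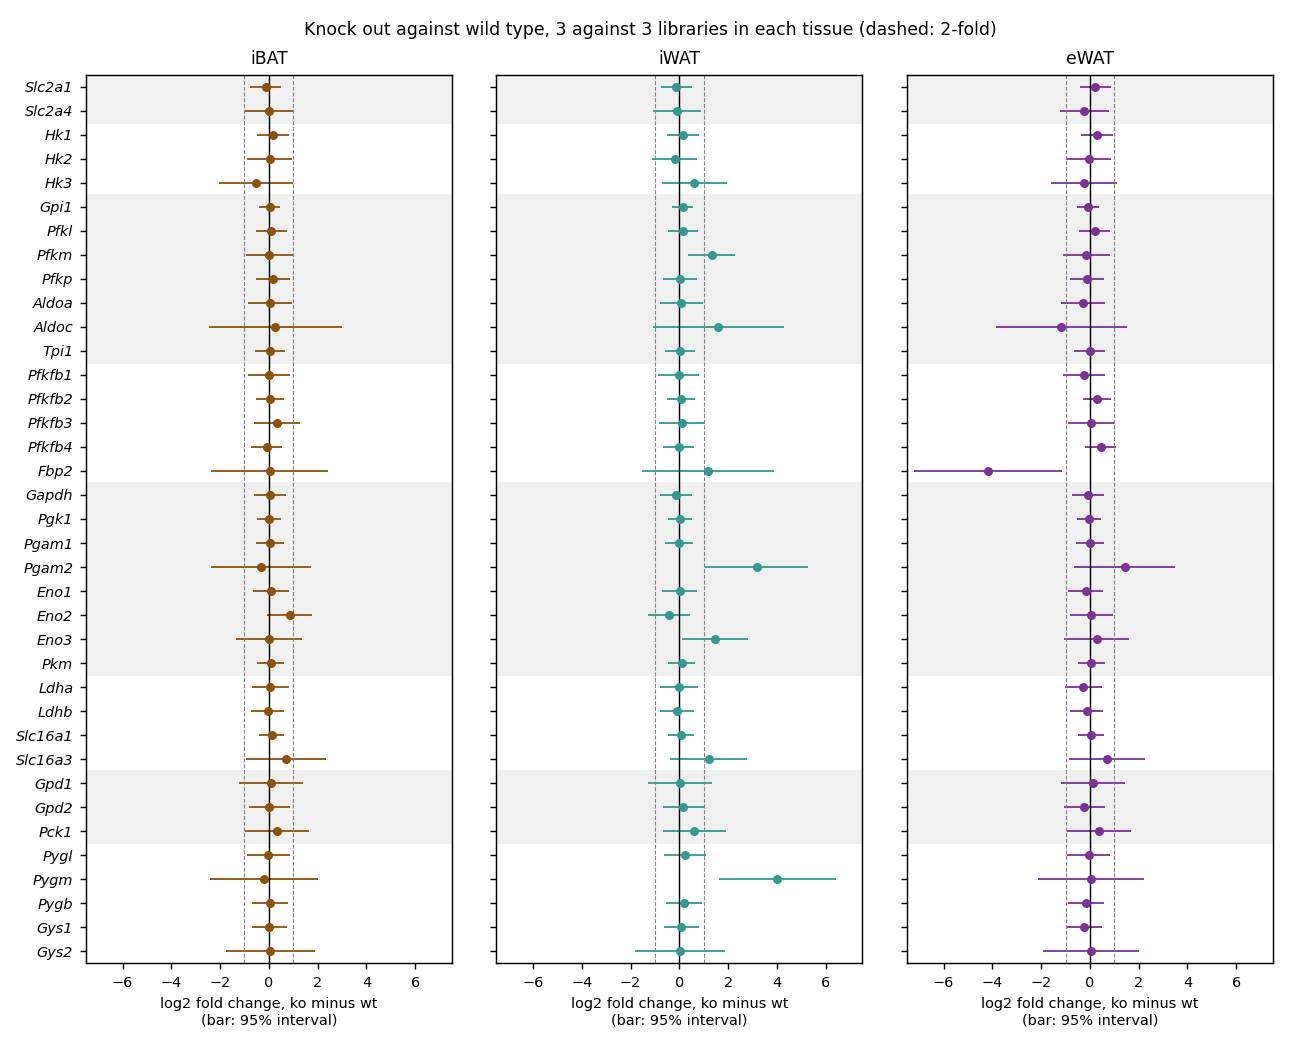
Log2 fold change of ko against wt (horizontal axis, bars show the 95% interval) of the 37 genes in iBAT, iWAT and eWAT, 3 against 3 libraries, with dashed lines at a 2-fold difference. Of the intervals, 24 in iBAT, 21 in iWAT and 20 in eWAT lie between the dashed lines. The differences farthest from 0 are those of Pygm (4.004) and Pgam2 (3.18) in iWAT and Fbp2 (-4.18) in eWAT, and abundant genes such as Gpd1, Pck1 and Slc2a4 reach past a dashed line in all 3 tissues.

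Other genes of the same pathways were examined in lists, and their counts stand beside 24% higher and 30.3% lower of all genes against iWAT, and 24.4% and 30.2% against eWAT. Of 21 other glycogen genes tested, 11 were higher and 1 lower in iBAT than in iWAT, and 11 higher and 2 lower than in eWAT. Ppp1r3b, a subunit that directs protein phosphatase 1 to glycogen, was higher by log2 4.14 (SE 0.47) and 6.69 (SE 0.53). The lower genes were Phkg1, a catalytic subunit of phosphorylase kinase (log2 -1.84, SE 0.38 and -2.26, SE 0.39), and Ppp1r3e against eWAT only (-0.73, SE 0.17). In the pentose phosphate pathway, which branches off at glucose-6-phosphate, 7 of 8 genes were higher in iBAT in each comparison, and H6pd was lower against eWAT (log2 -0.59, SE 0.20). Pgls was higher by 1.34 (SE 0.13) and 1.52 (SE 0.13), Taldo1 by 1.69 (SE 0.22) and 2.02 (SE 0.22), and Tkt by 2.10 (SE 0.33) and 3.37 (SE 0.35).

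The list of 19 genes of glucose production and pyruvate entry into mitochondria had 14 higher and 2 lower genes against iWAT and 13 higher and 4 lower against eWAT. Dlat and Pdha1, components of pyruvate dehydrogenase, were higher by log2 2.55 (SE 0.27) and 2.54 (SE 0.28) against iWAT and by 3.41 (SE 0.28) and 3.55 (SE 0.29) against eWAT, and Dld (2.38, SE 0.22) and Pdhx (2.08, SE 0.20) were higher against iWAT. The kinase gene Pdk3 (log2 -1.91, SE 0.24 and -3.04, SE 0.25) and the phosphatase gene Pdp1 (-0.68, SE 0.13 and -1.15, SE 0.13), which inactivate and activate this complex, were both lower. Of 13 other hexose and triose enzymes, 8 were higher and 0 lower against iWAT, and 9 higher and 2 lower against eWAT, with Galt at 1.21 (SE 0.12) and 1.35 (SE 0.12) and Tigar at 1.27 (SE 0.16) and 1.74 (SE 0.16). The lower ones were Galk1 (-0.86, SE 0.11) and Adpgk (-0.33, SE 0.12).

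Transporters and regulators were counted in the same way. Of 8 other genes of the hexose transporter families, grouped by family and not by substrate, 3 were higher and 5 lower in iBAT than in iWAT. Against eWAT, 1 was higher and 4 were lower. Slc2a3, which encodes GLUT3, was lower by log2 -1.92 (SE 0.30) and -2.87 (SE 0.31), and Slc2a13 by -4.21 (SE 0.41) and -4.11 (SE 0.41), while the fructose transporter gene Slc2a5 was higher by 2.48 (SE 0.78) and 4.95 (SE 0.90). Slc2a12 (0.97, SE 0.27) and Slc2a8 (0.40, SE 0.12) were higher against iWAT. Among 10 genes related to monocarboxylate transport, 2 were higher and 4 lower against iWAT, close to the shares of all genes, and 2 higher and 6 lower against eWAT. The higher ones included Bsg (log2 1.18 and 1.23, SE 0.14 each), the chaperone of MCT1 and MCT4, and the lower ones included Slc16a12 (-4.42, SE 0.62 and -6.12, SE 0.65) and Slc16a6 (-2.05 and -2.002, SE 0.32 each). Of 20 regulators, 9 were higher and 4 lower against iWAT and 8 higher and 4 lower against eWAT, with Esrra, an estrogen-related receptor gene, at log2 2.22 and 2.40 (SE 0.15 each) and Vhl, which targets hypoxia-inducible factors for degradation, at -0.65 and -0.93 (SE 0.14 each). Gsk3a, a kinase that inhibits glycogen synthase, was higher (1.05 and 1.14, SE 0.09 each), and Arrdc4, a glucose-induced arrestin gene, was lower (-0.96 and -1.10, SE 0.20 each). Between iWAT and eWAT, 0 to 4 genes of these lists of 8 to 21 genes were higher and 0 to 3 lower in iWAT, beside 5.7% and 4.5% of all genes. Of the near copies of the 37 genes, Eno1b had at most 58 counts and Aldoart1, Aldoart2 and Gapdh-ps15 at most 14 counts in any library.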

How the data were processed

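The deposited table holds estimated counts per gene as whole numbers, which the authors obtained by filtering paired reads with cutadapt and quantifying them with salmon against GENCODE M22 (GRCm38), alone or combined with RNAcentral. Which reference and strand setting was used for this table is not given in the sources used here. Salmon divides ambiguous reads by a model, so genes with near copies carry some uncertainty.

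For testing, edgeR 4.0.16 (R 4.3.3) was run with TMM scaling, filterByExpr by group and its quasi-likelihood test. A model with tissue and genotype gave the tissue contrasts and the genotype effect across tissues, and group means gave the effects within tissues and the interaction. Adjusted p are Benjamini-Hochberg values over 18728 genes (threshold 0.05). Differences are the first minus the second tissue, or ko minus wt. CPM are TMM-scaled. Isoform ratios were log2 of the counts plus 0.5, compared by two-sided exact permutation tests adjusted over 36 tests. Symbols are those of the deposited table, lengths come from GENCODE M21 and promoters from RefSeq.

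The 37 genes, lists, pairs and tests were chosen with earlier results of these data known. Described are genes past the threshold, the isoform pairs, the muscle isoforms, and from each list the up to 2 genes with the smallest p in each direction, apart from genes that are counted in their list but not reported singly here. Promoters are shown for pairs that differed in all 3 comparisons. Libraries of the same mouse are paired by the identifiers in the labels, and their deviations from the group means correlated at -0.151 to 0.345 (7 of 18 over 0.1). Intervals and p-values of edgeR rest on counting error and the spread between libraries, with 1 estimate per gene over all 18 libraries. This estimate includes the libraries that carried other tissue. The main models leave out the mouse, so libraries of the same mouse count as separate. Alternatives were DESeq2 1.42.0, other scalings and filters, the mouse as a block, wild type libraries only, another prior count, the merged exon length for the shares, and leaving out each library or the 4 with other tissue.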

Additional observations from a re-analysis of the deposited data

Results flagged for a closer look

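In each tissue, the highest and the lowest of the 6 libraries were compared with the other 5 for every gene of the pathway (Dixon's test). Of 111 comparisons, 15 showed a library far from the others, or 13.5%, where chance alone gives about 5.55 (1 in 20). Over all genes tested, 11.9% of the same comparisons did so (6.69% in iBAT, 8.05% in iWAT and 20.97% in eWAT, against 2.70%, 13.5% and 24.3% of the 37 genes), so the count is close to that of genes in general in these libraries.

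In iWAT ko replicate 1, which carried skeletal muscle markers, 5 genes stood apart: Pygm at 256 CPM (next highest 7.60), Pfkm at 133 CPM (34.4), Eno3 at 109 CPM (26.2), Pgam2 at 32.2 CPM (1.71) and Fbp2 at 2.09 CPM (0.682). All 5 are muscle isoforms, and all 13 skeletal muscle markers were highest in the same library.

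In eWAT ko replicate 3, which carried epididymis and testis markers and had the fewest counts, Eno3 was high at 22.03 CPM (next highest 13.7), Pfkfb2 at 17.2 CPM (9.89) and Pgam2 at 4.11 CPM (1.09), while Pfkm was low at 19.2 CPM (next lowest 27.4) and Hk3 at 1.44 CPM (3.66). The skeletal muscle markers summed to 17.4 CPM there, the lowest sum of the eWAT libraries.

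In eWAT wt replicate 1, Fbp2 was at 8.18 CPM (next highest 0.3004) and Aldoc at 6.51 CPM (2.53). The epididymis markers summed to 16.8 CPM there, against 0.172 to 2.82 CPM in the eWAT libraries other than ko replicate 3, the testis markers to 4.66 CPM, and their part in these levels was not tested. Hk2 was at 164.6 CPM in eWAT wt replicate 2 (next highest 129), where the testis markers summed to 6.405 CPM. Pck1 was at 2399 CPM in eWAT ko replicate 1 (next highest 1026). Slc16a3 was at 2.74 CPM in iBAT ko replicate 1 (next highest 1.49).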

How the results depend on the processing

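The counts of genes that differed between iBAT and white tissue stayed within 1.5 times of the reported ones under all alternatives run: 23 (wild type libraries only) to 31 (scaling by counts outside the mitochondrial genome) against iWAT, and 24 to 30 against eWAT. Leaving out each library in turn gave 27 to 28 and 28 to 29 genes, 5 to 11 between iWAT and eWAT, and 0 in every genotype test. For iWAT against eWAT, the count of 7 became 12 with DESeq2, 0 with wild type libraries only, 11 without iWAT wt replicate 3 and 13 without the 4 libraries that carried other tissue. The ratios passing there went from 3 to 6 without these libraries (4 gained, Ldha to Ldhb lost), and leaving out 1 library gave 8 to 11, 9 to 10 and 2 to 3 ratios in the 3 comparisons.

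Of the differences called with or without the 4 libraries, 2 reversed without them. The log2 difference of Eno3 between iBAT and iWAT became 0.0178 (adjusted p = 0.940) and that of Ldhb between iWAT and eWAT 0.33 (adjusted p = 0.0214). Changes of sign in differences called in neither case are not counted here. The cause of the reversals was not tested.

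With the mouse as a replicate block, 27 genes differed between iBAT and iWAT (Eno3 lost), 28 between iBAT and eWAT and 8 between iWAT and eWAT (Pfkp gained), and no genotype call changed. With the exact test over pairs of the same mouse, 10, 9 and 4 ratios differed (Pfkfb1 to Pfkfb3 gained between iWAT and eWAT), all at the smallest p this test can give. Same-numbered wt and ko mice carry neighbouring identifiers and the genotypes were litter mates, but which mice shared a litter is not given. Their deviations correlated at -0.558 to 0.608 (4 of 9 over 0.1). Genes with few counts limited the depth of the comparison: in eWAT, Fbp2 had 0 to 186 counts and Gys2 7 to 222. Requiring 10 or more counts in all libraries left 33 of the 37 genes and called 25, 25 and 6 of them.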
